A study of Sus scrofa with 3 samples.

Results

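Small RNA sequencing of porcine psoas major muscle listed 1933 miRNA names over 3 libraries, and 235 of them are the subject here. These 235 names belong to other mammals, and the authors' pipeline placed each of them, in every library that listed it, in the class whose miRBase hairpin did not map to the pig genome and whose reads did not map to it either. Names that began with the porcine prefix, predicted candidates and 60 names of a set of left-out miRNA families were not taken. The 63, 98 and 161 d libraries listed 94, 138 and 118 of the 235 names. Of these names, 41 were listed in all 3 libraries, 33 in 2 of the libraries and 161 in 1 of them.

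The muscle came from castrated male hybrid pigs (Landrace × Large White × Duroc) of 63, 98 and 161 d of age, described as fattening pigs. No group received a treatment of its own, but the diet was set by body weight, with less protein and lysine at higher weights. Age and diet stage therefore cannot be told apart. Equal amounts of RNA from 6 pigs of 1 age were combined into 1 library, and no age had a replicate. The variation between pigs of 1 age was therefore not measured, and every interval and p-value here compares libraries and covers counting error only. The psoas major is a muscle of the loin, and the comparison of ages asks which miRNAs change while the muscle of the growing pig matures.

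A mature miRNA is a short RNA cut from 1 arm of a hairpin, and it finds its target mRNAs mainly through its seed, the bases 2 to 8 from its 5′ end. Mature sequences are strongly conserved among mammals, so a miRNA of the pig that was missing from the porcine entries of miRBase or from the genome assembly could still be named after cattle (bta), sheep (oar), human (hsa), spider monkey (age), hamster (cgr), opossum (mdo) or platypus (oan). The bases at the 3′ end vary between copies of 1 miRNA, because the ends are trimmed or extended by A or U after cutting. The pipeline named such forms apart when they mapped apart.

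The representative reads of the most abundant names are printed first, because many of the names can be told from their porcine relatives only by a few bases. Each read is written 5′ to 3′ with T for U, as in the deposited files, with the seed in capitals. The read listed as oar-let-7b carried the seed of the let-7 family, which is known for holding cells in a differentiated state. It was the cattle let-7b read with 1 base more, and it differed from porcine let-7c at 1 position (A17G, the porcine base first and positions counted from the 5′ end).
oar-let-7b: tGAGGTAGtaggttgtgtggtta
bta-let-7b: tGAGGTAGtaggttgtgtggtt
ssc-let-7c: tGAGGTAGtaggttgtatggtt
hsa-let-7b-3p: cTATACAAcctactgccttcct

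The next reads belonged to miR-193b, miR-93 and miR-34a, and each is shown beside the porcine name closest to it. The miR-193b read kept the seed of porcine miR-193a-3p and differed from it at 3 positions (T9C, A20G and G21C). The miR-93 read kept the seed of miR-17-5p, the family that drives the cell cycle, and differed from it at 4 positions (T10G, A11T, C12T and A13C). The miR-34a read, from the miRNA that p53 induces, extended the listed porcine miR-34a read at its 3′ end by 2 bases.
cgr-miR-193b-3p: aACTGGCCcacaaagtcccgct
ssc-miR-193a-3p: aACTGGCCtacaaagtcccagt
age-miR-93: cAAAGTGCtgttcgtgcaggt
ssc-miR-17-5p: cAAAGTGCttacagtgcaggtag
age-miR-34a: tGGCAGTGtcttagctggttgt
ssc-miR-34a: tGGCAGTGtcttagctggtt

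Another set held the relatives of miR-16, whose seed is known for restraining the cell cycle. bta-miR-424-5p and oan-miR-16c-5p carried 1 seed, AGCAGCA, and bta-miR-503-5p differed from it in the last base of the seed. The platypus name oan-miR-16c-5p differed from porcine miR-16 at 2 positions (T17C and C21A).
bta-miR-424-5p: cAGCAGCAattcatgttttgaa
ssc-miR-424-5p: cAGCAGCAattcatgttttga
oan-miR-16c-5p: tAGCAGCAcgtaaatactggag
ssc-miR-16: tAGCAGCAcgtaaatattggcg
bta-miR-503-5p: tAGCAGCGggaacagtactg

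The last set shows representative reads that were no exact stretch of the hairpin they were named after, namely bta-miR-125b, oan-miR-137b-3p and oan-miR-21-5p, each above the porcine read of the same miRNA. bta-miR-125b was porcine miR-125b with AA added. oan-miR-137b-3p differed from porcine miR-137 at 2 positions (T9G and A10G), and the first of these is also its only difference from the platypus hairpin (T9G). oan-miR-21-5p began 1 base before porcine miR-21, so that its seed was shifted. At 1 position of its read (G4T) it differed both from the platypus hairpin and, after the shift, from porcine miR-21.
bta-miR-125b: tCCCTGAGaccctaacttgtgaaa
ssc-miR-125b: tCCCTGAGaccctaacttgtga
oan-miR-137b-3p: tTATTGCTggagaatacgcgtag
ssc-miR-137: tTATTGCTtaagaatacgcgt
oan-miR-21-5p: aTATCTTAtcagactgatgttga
ssc-miR-21: tAGCTTATcagactgatgttga

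Summed over all rows, the libraries of 63, 98 and 161 d held 1464699, 2418187 and 2242716 reads. Values are estimated counts of all forms listed under a name, not of its representative read alone. The pipeline had divided a read among the hairpins it matched. Levels are these counts per 1000000 listed reads (CPM), and 3 counts, taken as the smallest detectable amount, equal 2.05, 1.24 and 1.34 CPM. The porcine markers of skeletal muscle (miR-1, miR-133a-3p, miR-206, miR-208b, miR-499-5p and miR-486) were all detected and summed to between 249600 and 276900 CPM, so the tissue matched its label. The summed markers of blood cells ranged from 1903 to 2979 CPM with miR-223 at 0, those of endothelium from 5833 to 9769, and those of smooth muscle from 9380 to 27190. The liver marker miR-122 was at 7.51, 123 and 5.35 CPM. The summed markers of neurons (miR-124a and miR-9) were at 1307, 2486 and 2111 CPM, most of it miR-9. The part of these other cells in any result below was not tested, and in bulk tissue fewer cells of a type and less RNA per cell cannot be told apart.

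The 235 names held a small share of the reads. They summed to 5813.5, 8910.9 and 7817.0 counts, or 3969, 3685 and 3486 CPM. The share of the listed reads was 0.397% in the youngest pigs (95% Wilson interval 0.387 to 0.407), then 0.3685% (0.361 to 0.376) and 0.349% (0.341 to 0.356). On this scale the interval of the youngest library lay above the others. The order was not kept on other scales, since of the library's clean reads, those left after the authors' filtering, the set held 0.142%, 0.193% and 0.153%, lowest at 63 d, and with the left-out families the share was highest at 161 d (4.506%). Few of the names carried these reads. The 3 most abundant names of each library held 79.9%, 74.2% and 72.9% of the reads of the set, and the 10 most abundant 92.3%, 91.97% and 92.5%. At least 1 count was reached by 81, 121 and 102 names, and by 88, 94 and 83 names when counts, rounded to whole numbers with 0.5 raised to 1, were drawn at random to an equal depth of 968503 per library. On the deposited counts at least 10 counts were reached by 25, 24 and 22 names. The median listed name had 2 counts at 63 d and 1 at 98 and 161 d, where the median porcine name had 123, 234 and 151.

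**Figure D1:**
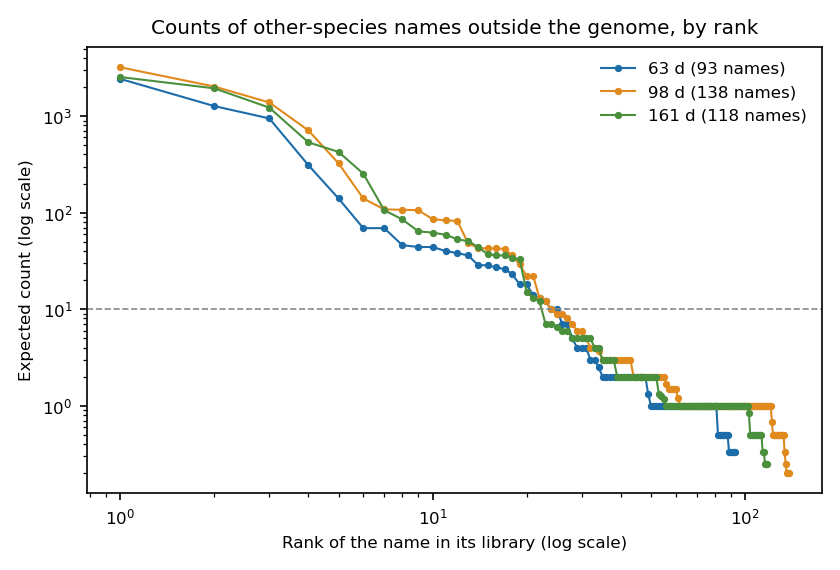
Estimated count of each name above 0 (vertical axis, log scale) against its rank within its library (horizontal axis, log scale), with 1 line per library and a dashed line at 10 counts. The lines fall from 2427, 3203 and 2538 counts at the first rank to long runs of names at 1 count, and 25, 24 and 22 names lie at or above the dashed line at 63, 98 and 161 d.

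let-7b was listed on both of its arms, and the name of its 5′ arm held the largest share of the set. oar-let-7b, with an A-extended representative read, had 2427, 3203 and 2538 counts at 63, 98 and 161 d, or 1657, 1325 and 1132 CPM. On this scale its level was highest at 63 d and lowest at 161 d. The fold change was 0.799 from 63 to 98 d (95% interval 0.758 to 0.843), 0.854 from 98 to 161 d (0.811 to 0.9003) and 0.683 over the whole span (0.646 to 0.722), below 1 in each pair but inside the limits of 0.5 and 2 used to call a change. Only the fold over the whole span stayed below 1 under every scaling tried, between 0.654 and 0.840. The fold from 63 to 98 d was 1.18 (1.11 to 1.24) with clean reads as the scale, and that from 98 to 161 d was 1.06 (1.01 to 1.12) with scaling factors taken from the authors' normalised values and 1.01 (0.957 to 1.06) with edgeR's TMM. The cattle name bta-let-7b, whose reads the pipeline placed on the genome and which is therefore not among the 235, had 15488, 21417 and 16818 counts. In the pool of all rows that shared a run of at least 17 bases with it, oar-let-7b made up 13.54% in the youngest library (interval 13.05 to 14.05), 12.87% in the next (12.46 to 13.29) and 13.0% in the oldest (12.54 to 13.48). The share under the name oar-let-7b thus had overlapping intervals in the 3 libraries. The share of the extended read alone was not computed. The reads of all these names together gave folds of 0.841, 0.846 and 0.712 in the same 3 pairs.

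The other arm of the hairpin, hsa-let-7b-3p, had 140, 324 and 253 counts, or 95.6, 134 and 113 CPM. Its fold from 63 to 98 d was 1.40 (interval 1.15 to 1.72) and had an interval above 1 under every scaling tried. The fold from 98 to 161 d was 0.842 (0.711 to 0.996), and 1.05 (0.885 to 1.24) with the authors' factors. Its representative read differed from the human entry at 1 position (C22T), and 8.57%, 10.5% and 7.91% of its reads were counted with a mapping error, against 99.3%, 98.0% and 98.0% for oar-let-7b. Between these 2 names the 5′ arm gave 94.55% of the reads at 63 d, with an interval of 93.6 to 95.4. It gave 90.8% at 98 d, with an interval of 89.8 to 91.7, and 90.9% at 161 d, with an interval of 89.8 to 91.9. The interval at 63 d lay above the others. These shares leave out bta-let-7b, which held most reads of the 5′ arm, so the 5′ share of the whole hairpin was larger. The shares with it added were not computed.

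miR-193b, studied for its part in brown fat cells, had almost the same share of the listed reads at all ages. cgr-miR-193b-3p had 1269.5, 2024.5 and 1938.5 counts, or 867, 837 and 864 CPM, and the 3 levels did not differ beyond counting error on this scale. The folds were 0.966 (interval 0.8999 to 1.04), 1.03 (0.970 to 1.099) and 0.997 (0.929 to 1.07) in the pairs 63 to 98 d, 98 to 161 d and 63 to 161 d. With the authors' factors they were 0.890 (0.829 to 0.955), 1.28 (1.21 to 1.37) and 1.14 (1.06 to 1.23), each with an interval off 1. The pipeline had split the reads evenly with the cattle name bta-miR-193b, which is not among the 235 because 5, 4 and 7 of its reads, in shorter forms, mapped to the genome. The reads of both names came to 2544, 4053 and 3884. The passenger arm was listed under the 2 names cgr-miR-193b-5p and hsa-miR-193b-5p, which had the same read and 28.5, 42.5 and 36 counts each. The 5′ arm held 4.30%, 4.03% and 3.58% of the reads under these 3 names, with intervals that overlapped between all libraries. Here the 5′ arm entered with both of its names, but the 3′ arm without the equal part under bta-miR-193b. The 5′ share of the whole hairpin was therefore lower than these values.

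age-miR-93, a member of the cluster with miR-25 and miR-106b in an intron of the replication gene MCM7, had 946, 1385 and 1224 counts, or 646, 573 and 546 CPM. Its fold was 0.887 from 63 to 98 d (interval 0.816 to 0.964) and 0.845 from 63 to 161 d (0.776 to 0.921), while that from 98 to 161 d, 0.953 (0.882 to 1.03), included 1. With the authors' factors the last was 1.185 (1.096 to 1.28), and the fold over the span, 0.968 (0.889 to 1.055), included 1. The representative read was 23 bases long at 63 d and 21 at 98 and 161 d. Its other arm, hsa-miR-93-3p, had 7, 10 and 13 counts, so the 5′ arm held 99.3%, 99.3% and 98.95% of the reads. From the same cluster, cgr-miR-25-5p, the passenger arm of miR-25, had 13, 6 and 5 counts.

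age-miR-34a had 311, 712 and 535 counts, or 212, 294 and 239 CPM, highest at 98 d on this scale. The fold was 1.39 from 63 to 98 d (interval 1.21 to 1.59) and 0.810 from 98 to 161 d (0.723 to 0.908), and 63 and 161 d did not differ beyond counting error (1.12, 0.975 to 1.30). The rise from 63 to 98 d kept an interval above 1 under every scaling tried, while from 98 to 161 d the fold was 1.01 (0.899 to 1.13) with the authors' factors. The porcine name ssc-miR-34a was listed only with shorter reads, which mapped to the genome, and with 9, 11 and 17 counts over its rows. The reads of all forms under the spider monkey name therefore held 97.2%, 98.5% and 96.9% of the miR-34a reads. Its other arm, hsa-miR-34a-3p, had 4, 3 and 0 counts.

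**Figure D2:**
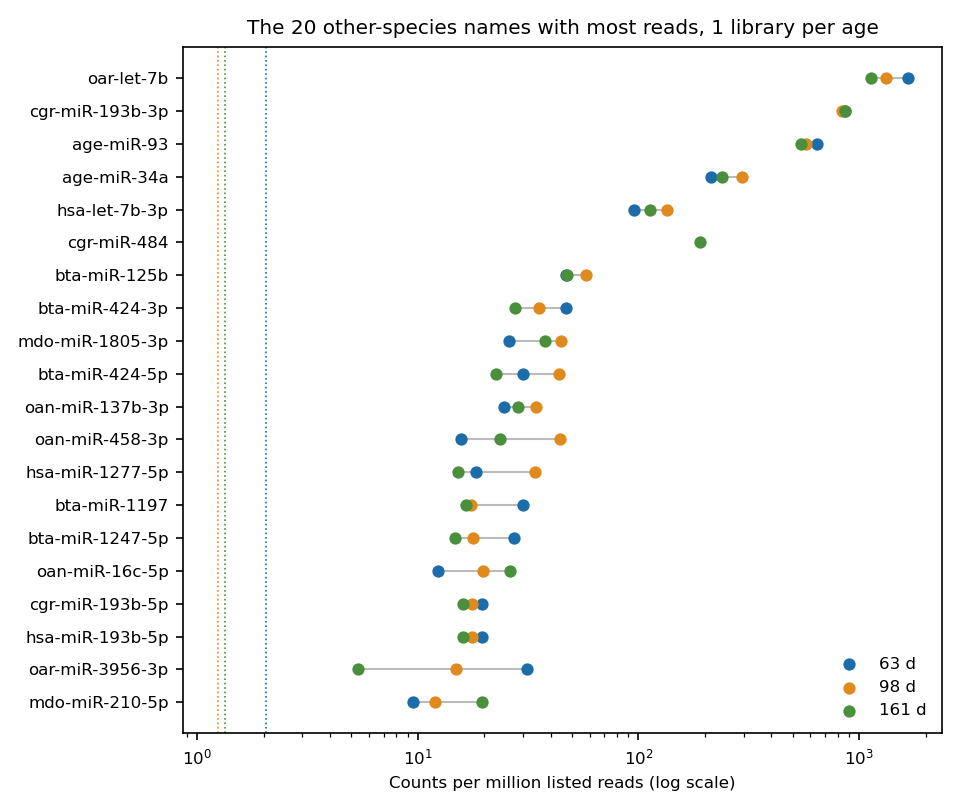
Counts per 1000000 listed reads (CPM) (horizontal axis, log scale) of the 20 most abundant names, with 1 point per library, and dotted lines at the level of 3 counts in each. oar-let-7b lies at 1132 to 1657 CPM, cgr-miR-193b-3p has 3 points almost on top of each other, oar-miR-3956-3p has the widest spread from 5.35 to 31.4, and cgr-miR-484 has a point at 161 d only.

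The relatives of miR-16 did not move as a group. bta-miR-424-5p, from an X-linked cluster with miR-503 that takes part in cell-cycle exit of muscle cells, had 44, 106 and 50.5 counts at 1 of the 2 rows that listed it with equal values, or 30.04, 43.8 and 22.5 CPM. It was highest at 98 d, with a fold of 0.519 from 98 to 161 d (interval 0.364 to 0.731). The porcine name ssc-miR-424-5p, with reads shorter by 1 base or more, held most reads of this arm, so that the cattle name had 40.4%, 32.6% and 30.3% of them over both of its rows. The 3′ arm, bta-miR-424-3p, had 69, 85.5 and 62 counts and no porcine counterpart. It was at 47.1, 35.4 and 27.7 CPM, highest at 63 d on this scale, where the 5′ arm was highest at 98 d. The fold of the 3′ arm from 63 to 98 d was 0.755 (0.544 to 1.052), with an interval that included 1. With the authors' factors that fold was 0.696 (0.501 to 0.969), and with clean reads 1.11 (0.7998 to 1.55). Between these 2 names the 5′ arm held 38.9% (30.5 to 48.2), 55.4% (48.1 to 62.1) and 44.9% (36.3 to 54.3) of the reads. With the porcine name added to the 5′ arm and all rows counted, it held 61.2% (56.1 to 66.2), 79.2% (76.3 to 81.8) and 72.9% (68.6 to 76.7), the larger part in each library. Both cattle names were listed at 2 rows with equal values, and it is not known whether the reads were halved or repeated there. The levels of both arms, and the shares and intervals over all rows, depend on this. oan-miR-16c-5p had 18, 48 and 59 counts, or 12.3, 19.9 and 26.3 CPM, and was lowest at 63 d. Porcine miR-16 itself held 43686.7 counts over the 3 libraries.

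A group of abundant names had mapping errors in all or almost all of their reads. A mapping error is a base that the pipeline counted as not matching the sequence it mapped the read to. This was not the same as a difference from the named hairpin. The representative read of hsa-let-7b-3p (C22T) was listed with 0 errors, while that of bta-let-7b, an exact stretch of its hairpin, was listed with 1. Over the 235 names, 53.1% of the reads at 63 d carried one, with a Wilson interval of 51.8 to 54.3. The share was 48.1% at 98 d (47.1 to 49.2) and 46.2% in the oldest pigs (45.1 to 47.3). It was 16.2%, 18.3% and 17.4% under porcine names and 28.65%, 28.05% and 24.4% under the remaining other-species names. Most of that excess was oar-let-7b. Without it the share was 19.96% (18.65 to 21.3), 20.1% (19.1 to 21.2) and 21.3% (20.2 to 22.4), still above the porcine share in each library. Counted by name rather than by read, 147 of the 235 names had an error in every read, and the median name was at 100% in each library. Among the 34 names with at least 10 counts over the libraries, 10 had errors in all reads and 15 had errors in fewer than 25% of them.

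bta-miR-125b, a relative of lin-4 with a role in muscle regeneration, was the most abundant of those with errors in all reads. It had 69, 140 and 106 counts, or 47.1, 57.9 and 47.3 CPM, and its AA extension was not in the hairpin. Reads under ssc-miR-125b and the few others of that run came to 2760, 6248 and 4429. Of these together with its own reads, the name bta-miR-125b held 2.44% (1.93 to 3.08), 2.19% (1.86 to 2.58) and 2.34% (1.94 to 2.82), with overlapping intervals. oan-miR-137b-3p, related to a miRNA known from neurons, had 36, 83 and 64 counts, or 24.6, 34.3 and 28.5 CPM. On this scale its differences between libraries were within counting error in all 3 pairs. With clean reads as the scale the fold was 2.055 (1.37 to 3.13) from 63 to 98 d and 0.6945 (0.493 to 0.974) from 98 to 161 d, both with an interval off 1. cgr-miR-532-5p, porcine miR-532-5p with 2 bases more, had 10, 9 and 6.5 counts, and the last value was 1 of 2 equal rows. The names mml-miR-320b, cfa-mir-99b-p3, hsa-miR-4532, mdo-miR-31-5p and oan-miR-29a-3p were further cases, each with at most 22 counts in a library and errors in 100% of the reads, except 85.7% for oan-miR-29a-3p at 161 d.

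**Figure D3:**
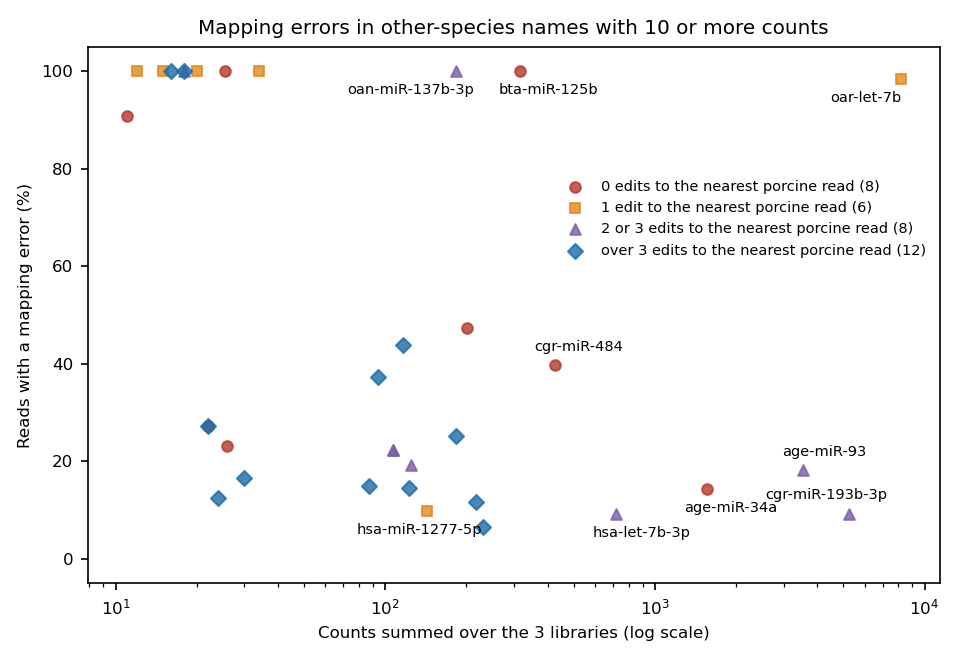
Share of reads with a mapping error (vertical axis, percent) against counts summed over the 3 libraries (horizontal axis, log scale) for the 34 names with at least 10 counts, with symbols for the class of the number of edits to the nearest porcine read. Points fall into a band at or near 100%, where oar-let-7b, bta-miR-125b and oan-miR-137b-3p lie, and a wider band below 50%, where cgr-miR-193b-3p, age-miR-93 and age-miR-34a lie.

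Distance to the nearest porcine read was counted in substitutions, insertions and deletions, with up to 4 overhanging bases at either end counted apart. Of the 235 names, 15 were within their ends identical to a listed porcine read, 21 were 1 edit away, 27 were 2 or 3 edits away and 172 more than 3. The abundant names were close and the rare ones far: of the 34 names with at least 10 counts, 8 had 0 edits, 6 had 1, 8 had 2 or 3 and 12 had more than 3, while 160 of the 201 rarer names had more than 3. By reads, names at 0 edits held 11.5% of the set, those at 1 edit 37.4%, those at 2 or 3 edits 44.8% and those beyond 3 edits 6.30%. These shares rest in part on porcine names with few reads, as the nearest reads of cgr-miR-193b-3p and age-miR-34a had 57 and 39 counts. Against porcine names with at least 100 counts alone, the shares were 4.52%, 36.7%, 21.5% and 37.3%. For the 8 names at 0 edits a porcine name was listed with the same read apart from its ends, so that they were not absent from the porcine names. That porcine name stood itself in the class outside the genome for miR-484, miR-503 and miR-342, and in a class mapped to the genome for miR-34a, miR-125b, miR-424-5p and miR-532-5p. They were age-miR-34a, cgr-miR-484, bta-miR-125b, bta-miR-424-5p, bta-miR-503-5p, cgr-miR-532-5p, eca-miR-342-5p and oan-miR-29a-3p. Among the 34 names, 15 had the seed of their nearest porcine read, including oar-let-7b, cgr-miR-193b-3p, age-miR-93 and age-miR-34a, and for the other 19 no porcine read listed had their seed.

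The 12 names that were far from every porcine read and had at least 10 counts are shown next by their main representatives, since no porcine name stands for them. None of them reached 100 counts in all libraries. In 10 of the 12 the representative read was an exact stretch of the hairpin of the other species.
mdo-miR-1805-3p: tGTATTGGaacactacagctcc
oan-miR-458-3p: aTAGCTCTttgaatggtactgc
bta-miR-1197: tAGGACACatggtctacttct
bta-miR-1247-5p: aCCCGTCCcgtgcgtccccgga
oar-miR-3956-3p: tCTGACCTtcctgcatcccgtt
mdo-miR-210-5p: aGCCACTGactaacgcacattg

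mdo-miR-1805-3p, described from the opossum, had 38, 108 and 85 counts, or 25.9, 44.7 and 37.9 CPM, with errors in 7.89%, 3.70% and 9.41% of its reads. Its 5′ arm, mdo-miR-1805-5p, had 2, 2 and 0 counts. oan-miR-458-3p, described from the platypus, had 23, 107 and 53 counts, or 15.7, 44.3 and 23.6 CPM, and 98 d stood above both other ages. Its 5′ arm, oan-miR-458-5p, had 0, 1 and 0 counts. hsa-miR-1277-5p, which has a repeat of TA in its read, had 27, 82 and 34 counts, or 18.4, 33.9 and 15.2 CPM, and was likewise highest at 98 d. It is not among the names far from every porcine read, being 1 edit from ssc-mir-1277-p3, which had 2 counts.
hsa-miR-1277-5p: tATATATAtatatgtacgtat

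bta-miR-1197, from the imprinted miRNA cluster of the DLK1-DIO3 region, had 44, 42 and 37 counts, or 30.04, 17.4 and 16.5 CPM. It was highest at 63 d, with a fold of 0.578 from 63 to 98 d (interval 0.370 to 0.903). oar-miR-668-3p, from the same cluster, had 10, 8 and 4 counts. bta-miR-1247-5p had 40, 43 and 33 counts, or 27.3, 17.8 and 14.7 CPM, and its 3′ arm 2, 1 and 1 counts. mdo-miR-210-5p, the passenger arm of the miRNA that hypoxia induces, had 14, 29 and 44 counts, or 9.56, 11.99 and 19.6 CPM, lowest at 63 d with a fold of 2.05 from 63 to 161 d (interval 1.10 to 4.06) that did not pass the adjusted test (exact conditional binomial test, adjusted p = 0.0625). oar-miR-3956-3p, described from sheep, had 46, 36 and 12 counts, or 31.4, 14.9 and 5.35 CPM, and each age was below the one before it.

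Libraries were compared in pairs with an exact conditional binomial test on counts rounded to whole numbers, two-sided, with Benjamini-Hochberg adjustment over all names tested in the pair. A change was called with a fold above 2 or below 0.5 and an adjusted p under 0.05. From 63 to 98 d, 3 of the 174 names tested were called higher and 4 lower, where 5.31% of all 1543 names were called higher and 4.93% lower. From 98 to 161 d, 2 of 189 were called higher and 6 lower, where the background was 2.57% and 6.23% of 1636 names. With clean reads as the scale the calls from 63 to 98 d were 11 higher and 2 lower, and with the authors' or DESeq2's factors those from 98 to 161 d were 3 higher and 3 lower. From 63 to 161 d, 3 of 161 were called higher and 6 lower, where it was 4.50% and 9.00% of 1423 names. With clean reads or the factors of the authors, TMM or DESeq2 the last pair gave 4 higher and 5 lower. In total 4.02%, 4.23% and 5.59% of the tested names of the set were called in these pairs, against 10.2%, 8.80% and 13.5% of all names. Most names of the set had too few counts to be called. Among those with at least 20 counts in either library, 4 of 22, 5 of 22 and 4 of 21 were called (18.2%, 22.7% and 19.05%), where 22.8%, 21.9% and 30.4% of all names with such counts were.

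For the names with at least 20 counts in both libraries, the median log2 fold was -0.05 (in CPM) from 63 to 98 d (17 names), -0.24 from 98 to 161 d (18 names) and -0.26 from 63 to 161 d (16 names). Over all names with such counts it was 0.15, -0.27 and -0.19, and another scaling moved the median of all names by more than 0.1 in each pair. Of the 17 names compared from 63 to 98 d, 4 had an interval below 1, 6 above 1 and 7 across 1. From 98 to 161 d, 6 lay below, 1 above and 11 across 1, and from 63 to 161 d, 5 lay below, 0 above and 11 across 1. These sides depended on the scale: for the 19 names above 0 throughout and with at least 20 counts in 1 library of each pair, 4 lay below and 6 above 1 from 63 to 98 d on listed reads, but 0 below and 12 above with clean reads, and from 98 to 161 d 7 lay below and 1 above on listed reads, but 4 below and 5 above with the authors' factors.

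**Figure D4:**
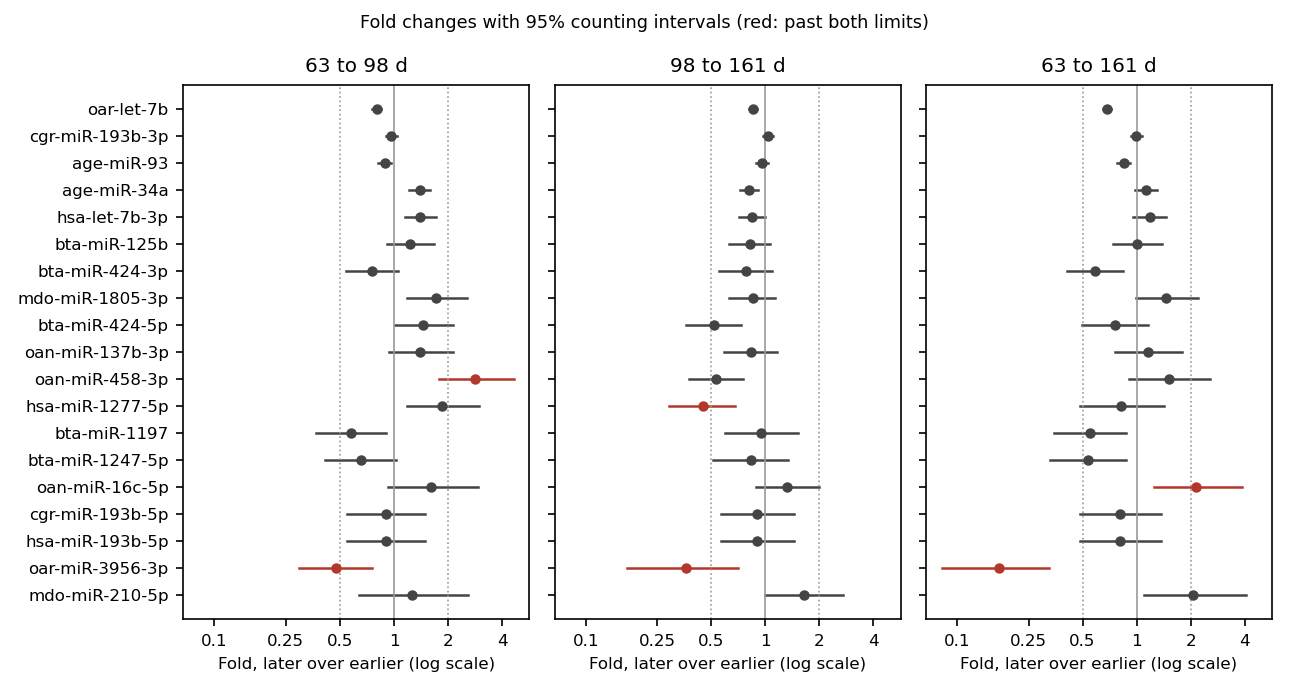
Fold change of the later over the earlier library (horizontal axis, log scale) with 95% counting intervals for the 19 names above 0 in all libraries and with at least 20 counts in 1 library of each pair, in 1 panel per pair, on the scale of listed reads. Solid and dotted lines mark folds of 1, 0.5 and 2, and red marks called changes. Most points lie between 0.5 and 2, but many intervals reach past 1 of these limits. oar-miR-3956-3p has its point below 0.5 in all 3 panels, and oan-miR-458-3p lies at 2.82 from 63 to 98 d.

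Over the 3 pairs 24 calls fell on 14 names, and 5 of these names were above 0 in all libraries. oar-miR-3956-3p was the only name called in every pair. It fell 2.11-fold from 63 to 98 d (interval 1.33 to 3.36, adjusted p = 0.00495 by the exact conditional binomial test), 2.78-fold from 98 to 161 d (1.42 to 5.87, adjusted p = 0.00831) and 5.87-fold over the span (3.06 to 12.2, adjusted p = 8.28e-09). With the authors' factors, edgeR's TMM or DESeq2's median of ratios the fall from 98 to 161 d was not called (folds of 0.447, 0.424 and 0.445), and with clean reads as the scale that from 63 to 98 d was not (0.698).

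oan-miR-458-3p rose 2.82-fold from 63 to 98 d (interval 1.78 to 4.64, adjusted p = 9.29e-06 by the exact test) and had a fold of 0.534 from 98 to 161 d, inside the limits. hsa-miR-1277-5p fell 2.24-fold from 98 to 161 d (1.48 to 3.44, adjusted p = 0.000413 by the exact test), after a fold of 1.84 from 63 to 98 d that was inside the limits. Its fall was not called with the authors' factors, TMM or DESeq2's factors, where the folds were 0.556, 0.528 and 0.553. oan-miR-16c-5p rose 2.14-fold from 63 to 161 d (1.25 to 3.86, adjusted p = 0.0165 by the exact test), and with reads without mapping error alone the fold was 1.57 and was not called.

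cgr-miR-25-5p, with at most 13 counts, fell 3.58-fold from 63 to 98 d (interval 1.27 to 11.5, adjusted p = 0.0389 by the exact test) and 3.98-fold from 63 to 161 d (1.33 to 14.3, adjusted p = 0.0299). It lost the first of these calls with clean reads as the scale and with error-free reads, and the second with these and with the authors', TMM and DESeq2's factors.

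The remaining 16 calls fell on 9 names that were at 0 in a library, and for most of these the same or a similar read stood under another name there. For 7 of the 9, every library at 0 listed, in the same class outside the genome, a read that shared a run of at least 17 bases under another name. cgr-miR-484 was listed at 161 d alone, with 425.5 counts or 190 CPM, and a rise of at least 92.7-fold from 63 to 161 d was called (adjusted p = 5.94e-92 by the exact conditional binomial test). The same read was listed at 63 and 98 d under bta-miR-484 and in all libraries under ssc-mir-484-p5. With all such names summed the counts were 781, 1185 and 851, or 533, 490.0 and 379.5 CPM, and the fold from 63 to 161 d was 0.712 (interval 0.645 to 0.785).
cgr-miR-484: tCAGGCTCagtcccctcccgat
bta-miR-484: tCAGGCTCagtcccctcccgat

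bta-miR-503-5p was listed at 63 d alone with 26 counts, and a fall of at least 14.3-fold to 98 d was called (adjusted p = 1.1e-10 by the exact test). The identical read carried the name ssc-miR-503 at 98 and 161 d, with 87 and 34 counts. Under either name the levels were 17.8, 36.0 and 15.2 CPM, so that the fold from 63 to 98 d was 2.03 (interval 1.29 to 3.27) and pointed the other way. On listed reads bta-miR-424-5p of the same cluster also had its highest level at 98 d. bta-miR-424-3p had its highest at 63 d on this scale, but 63 and 98 d did not differ beyond counting error.

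eca-miR-342-5p was listed at 98 d alone with 22 counts and was called in both pairs that include 98 d. A longer read of the same start was named ssc-mir-342-p5 at 63 and 161 d, with 17 and 11 counts. Summed, the fold was 0.784 from 63 to 98 d (interval 0.398 to 1.57) and 0.539 from 98 to 161 d (0.236 to 1.16). A read like miR-21 but with an extra 5′ base and a changed base (G4T) also changed its name. It went by mdo-miR-21-5p at 63 and 98 d, with 7 and 13 counts, and by oan-miR-21-5p at 161 d, with 15 counts. Together these gave 4.78, 5.38 and 6.69 CPM and a fold of 1.40 from 63 to 161 d (0.537 to 4.06), beside 6789, 15735 and 10419 counts of ssc-miR-21.

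hsa-mir-4792-p5 was listed at 63 d with 18 counts, and at 98 and 161 d reads of hsa-miR-4792 that shared its run had 24 and 28 counts, which gave 12.3, 9.93 and 12.5 CPM. mml-miR-320b had 12, 22 and 0 counts, and at 161 d a near read of this class was named hsa-miR-320b with 6 counts. Its fold from 98 to 161 d with both names was 0.294 (interval 0.0975 to 0.748), and that from 63 to 161 d was 0.327 (0.101 to 0.940), both with an interval below 1. These falls rest on the class outside the genome: with the rows of hsa-miR-320b in all classes added the counts were 20, 32 and 21, and the folds 0.708 (0.388 to 1.27) and 0.686 (0.354 to 1.33). Porcine miR-320, which differs from the read of mml-miR-320b at 2 positions (G21A and A22T), had 2912, 3363 and 3276 counts. The 2 names with no such read in the class were cfa-mir-99b-p3, with 0, 12 and 6 counts, and oan-miR-153-1-5p, with 0, 9 and 0 counts. A form of the latter read shorter by 1 base was listed on the genome as mmu-miR-153-5p, with 18 counts at 98 d and 16 at 161 d. The call of oan-miR-153-1-5p was lost with the authors' and DESeq2's factors, and that of cfa-mir-99b-p3 with DESeq2's.

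**Figure D5:**
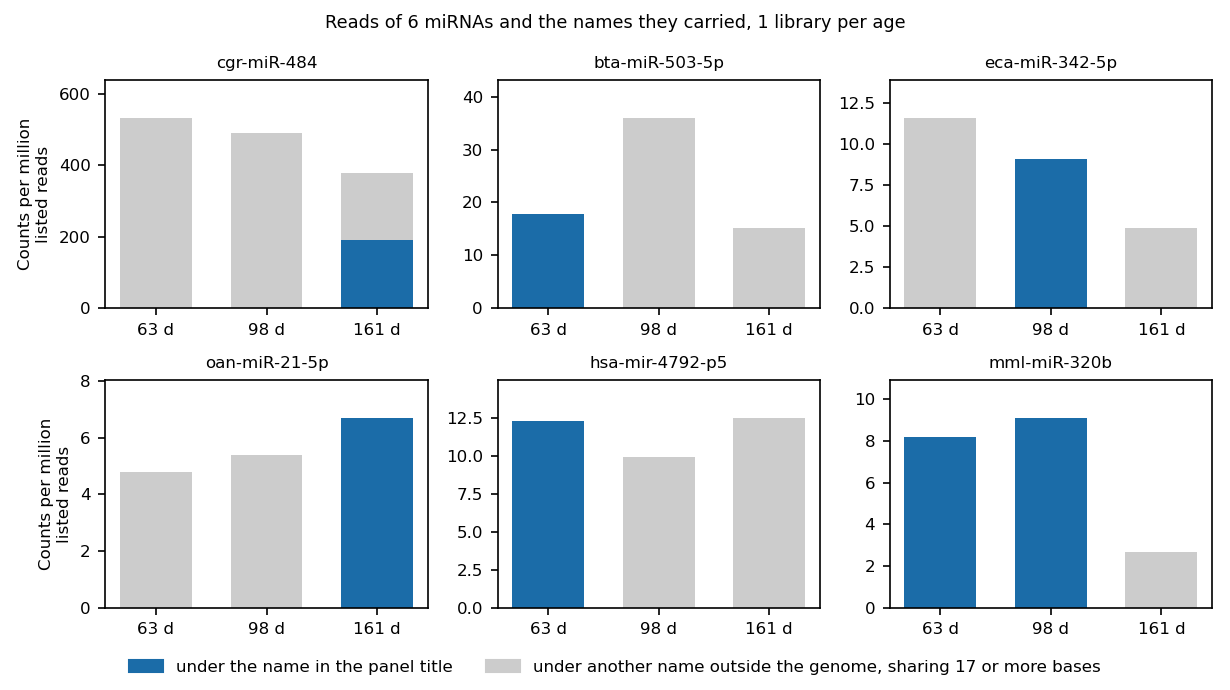
Counts per 1000000 listed reads (CPM) (vertical axis, linear, from 0) in the libraries of 63, 98 and 161 d (horizontal axis) for 6 miRNAs, with reads under the name in the panel title in blue and reads of other names in the same class that share at least 17 bases in grey. Each name has at least 1 library with a grey bar alone, so a read sharing such a run was listed there under another name. A shared run does not make the reads identical, and for mml-miR-320b the grey bar is a near read.

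The 201 names with fewer than 10 counts over the libraries held 1.60% of the reads of the set. They were mostly mouse and human names: mouse names made up 57 of the 235 and human names 55, but no mouse name reached 10 counts. Of the 201, 149 had a representative read that was no exact stretch of its hairpin, 137 had an error in every read, and 104 named an arm without a miRBase entry, marked p5 or p3. Reads of 21 to 23 bases made up 91 of the 201, against 27 of the 34 names with at least 10 counts. The seed shared by most names was GTGTGTG, a stretch of the GT repeat, in 7 names of the miR-466, miR-467, miR-558 and miR-3149 families, none of which had 10 counts, and the seeds ACACACA and ATGTGTG were in 3 names each. Repeat stretches of this kind occur at many places in mammalian genomes.

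By species, sheep names held 36.8% of the reads of the set, hamster names 25.8% and spider monkey names 22.7%, and these came almost wholly from let-7b in sheep, miR-193b and miR-484 in the hamster, and miR-93 and miR-34a in the spider monkey. Platypus and opossum, the mammals most distant from the pig, gave 23 and 17 names with 2.55% and 1.69% of the reads, of which 56.9% and 22.7% were in error.

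Read against lists of miRNAs by tissue and family, the set held few of the miRNAs of muscle and of other cells in its tissue. The rule took no porcine names, under which the markers of muscle, blood cells, endothelium and smooth muscle were listed, and it left out further families. The low counts on these lists thus follow from the rule and are no result about the muscle. The muscle list had 1 name, with 1 count at 98 d, the blood cell list 4 names with 1, 5 and 7 counts in all, and the vascular list 1 name with 1 count at 161 d. The let-7 list had 3 names, with 0 called in any pair and median log2 folds of -0.32, -0.24 and -0.16. The list of miR-17-92 and its paralogues had 8 names with 966, 1405 and 1243 counts, nearly all of them age-miR-93, and its only calls were those of cgr-miR-25-5p. The miR-15/16 list had 5 names with 157, 240.5 and 172.5 counts, and its calls were the rise of oan-miR-16c-5p and the change of name of bta-miR-503-5p. The neural list had 4 names, of which oan-miR-137b-3p held most counts, with 0 called in any pair. The lists of fibroblasts, HOX clusters and miR-30 had 4, 1 and 3 names, and 201 names were in no list.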

How the data were processed

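The 3 small RNA libraries of psoas muscle, 1 per age, each held RNA of 6 pigs. The authors processed the reads with ACGT101-miR 4.2, mapped them to miRBase hairpins and the pig genome, and deposited 1 file per library with counts of copies of the representative read and with expected counts of all isoforms of an arm, also split by mapping error, without normalization. The genome build was not used here, and the 63 d file states other hairpin criteria than the later files. Suffixes for isoforms were cut from names, and a blank name took that of the row above. A name at several hairpins was counted at the one listed in most libraries, ties by file order. Predicted candidates were matched by position and arm.

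The members and lists were chosen with earlier results of these data known. The names given by rule are the 20 with most reads, the 3 called with the largest change per direction and pair with at least 20 counts, those with at least 10 counts in 1 library only, and those with at least 100 counts in all and over 3 edits to a porcine read. The last part gave no name, and further names were chosen after their values were seen. Pairs of libraries were compared by an exact conditional binomial test on expected counts rounded to whole numbers, and the closing section gives other scalings, tests, filters, hairpin rules and rules of membership. Distances used edit distance on representative reads. Scaling factors for alternatives came from edgeR 4.0.16 and DESeq2 1.42.0 in R 4.3.3, and all else from Python 3.11.15 and scipy 1.17.1. The comparison was tested on simulated data. Intervals are 95%, Wilson for shares and Clopper-Pearson for folds.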

Additional observations from a re-analysis of the deposited data

How the results depend on the processing

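Scaling to the hairpins used, to porcine names, by the authors' factors, TMM or DESeq2, Fisher's exact test, a minimum of 10 counts, a pseudocount of 1 and the other hairpin rules left each count of called names within 1.5 times of the main one (7, 8 and 9 in the pairs 63 to 98 d, 98 to 161 d and 63 to 161 d). Clean reads as the scale gave 13 from 63 to 98 d, with 5 of the 7 shared, and moved the median log2 fold of all names from 0.11 to 0.66. Error-free reads alone gave 4 and 5 in the later pairs. Keeping the left-out families gave 18, 24 and 25 calls, and asking for the class in only 1 file gave 21, 13 and 27. Over the 12 alternatives with the same membership, the 24 single calls held in 258 of 288 cases. In 18 the call was lost with a value left. In 12 there was no value, where error-free reads or the minimum of 10 counts removed the name. Of those with a value, 0 changed direction. For the 16 calls with a library at 0, another scale, test or filter could not turn the direction, so these cases are no check of it.

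With reads of the same class that share at least 17 bases summed over names, an alternative added after the data were seen, directions turned for cgr-miR-484 (0.712 from 63 to 161 d and 0.774 from 98 to 161 d), bta-miR-503-5p (2.03 from 63 to 98 d), eca-miR-342-5p (0.784 from 63 to 98 d), mdo-miR-21-5p (1.24 from 98 to 161 d and 1.40 from 63 to 161 d) and hsa-mir-4792-p5 (1.02 from 63 to 161 d), by construction through the added names.

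Names detected fell from 81, 121 and 102 at 1 count to 33, 43 and 38 at 3 counts and 25, 24 and 22 at 10 counts, and were 163, 206 and 185 with the class in only 1 file. At equal depth they were 88, 94 and 83. The share of reads, 0.397%, 0.3685% and 0.349%, became 0.600%, 0.520% and 0.505% of the hairpins used, 0.142%, 0.193% and 0.153% of clean reads, 3.89%, 3.36% and 4.51% with the left-out families and 0.942%, 0.771% and 0.675% with the class in only 1 file. The share of reads with errors, 53.1%, 48.1% and 46.2%, became 19.96%, 20.1% and 21.3% without oar-let-7b, 15.5%, 15.6% and 13.3% with the left-out families, and 100%, 100% and 100% as the median over names. Names over 3 edits from a porcine read numbered 172, 190 with ends counted and 183 against porcine names with 100 counts, which moved the share of reads beyond 3 edits from 6.30% to 37.3%, a value added after the data were seen, as were the scalings of names not called, the arms of miR-424 with the porcine name and miR-320b over all classes.

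No paired analysis was possible because each age had 1 library and the labels give no replicate numbers. No library was left out of a comparison for the same reason.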
